A study of Mus musculus with 6 samples.

Results

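The mature miRNAs of the imprinted Dlk1-Dio3 domain on mouse chromosome 12 were followed in small extracellular vesicles (sEV) shed by cochlear explants. Members were taken from the table by name, as every mouse miRNA with 1 of 51 listed numbers of this cluster, with any letter and either arm. The rule found 64 of the 810 miRNAs in the table (7.90%). They stood for 43 of the 51 numbers and for 45 hairpins, and both arms were present for 19 hairpins. No row was found for miR-453, miR-544, miR-654, miR-665, miR-673, miR-679, miR-1197 and miR-3070. The explants were pieces of cochlear sensory epithelium from ICR mice at postnatal day 3, freed of the spiral ganglion and kept in medium with sEV-free fetal bovine serum. They received 50 µM cisplatin, a platinum drug that damages hair cells (Cis-sEV), or the same volume of PBS (Ctrl-sEV), both for 48 h. Each group held 3 samples, given as biological replicates, and each sample pooled the sEV of about 80 explants. The values are reads counted on each mature miRNA, and a level in CPM, counts per 1e+06, is that number scaled by the library's miRNA reads, with no division by length, since the members are 19 to 25 bases long.

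An miRNA is cut from a hairpin in a longer transcript, and the bases 2 to 8 of the mature strand, the seed, largely decide which mRNAs it pairs with. The Dlk1-Dio3 domain is imprinted: Dlk1, Rtl1 and Dio3 are expressed from the paternal chromosome, and the non-coding RNAs Meg3, Rian and Mirg, with the miRNAs of the cluster, from the maternal one. These miRNAs are known for high levels in embryo, placenta and brain, and those facing Rtl1 are complementary to its mRNA.

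The hairpins lay within 184.3 kb at chr12:109563692-109747960 (GRCm38.p6, RefSeq), all on the plus strand except Mir3071, and Mir666 was not placed. For description the members fall into 3 groups along the locus. The 14 members of the first group lie from Meg3 through the stretch antisense to Rtl1, the 3 members of the second lie in Rian, and 47 belong to the group that runs from Mir379 to Mir410 and on to Mir3072, whose distal hairpins lie in Mirg. RefSeq held the mature sequence of 61 members, and all 61 were the same as in the table. The sequences of the 7 miRNAs that passed the test between Cis-sEV and Ctrl-sEV follow, with the seed in capitals; the one of miR-485-5p is from the deposited table.
miR-136-5p: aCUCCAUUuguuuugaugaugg
miR-3071-3p: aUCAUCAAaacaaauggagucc
miR-329-3p: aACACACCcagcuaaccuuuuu
miR-369-3p: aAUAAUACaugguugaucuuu
miR-370-3p: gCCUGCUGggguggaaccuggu
miR-341-3p: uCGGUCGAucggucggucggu
miR-485-5p: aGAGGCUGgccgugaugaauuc
These 7 hold 7 different seeds. The 64 members held 62 seeds in all, so that no seed family spanned the cluster. The seed of miR-329-3p was the only one of these 7 that also occurred in a miRNA of the table from outside the cluster, miR-362-3p.

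The members that carried most of the reads in both groups are shown for comparison, again with the seed in capitals.
miR-127-3p: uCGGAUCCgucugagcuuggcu
miR-411-5p: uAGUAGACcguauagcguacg
miR-369-5p: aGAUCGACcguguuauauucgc
miR-379-5p: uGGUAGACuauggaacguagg
miR-382-5p: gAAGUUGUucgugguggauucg
miR-434-3p: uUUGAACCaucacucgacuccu
The seed of miR-379-5p was shared with miR-1193-5p, and that of miR-370-5p with miR-1193-3p. The hairpin Mir369, at chr12:109743418-109743496 on the plus strand inside Mirg, is printed because its 3p arm was called and its 5p arm was not, and its mature arms are in capitals.
Mir369: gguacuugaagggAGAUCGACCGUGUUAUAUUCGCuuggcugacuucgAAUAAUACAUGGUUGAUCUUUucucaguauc

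Before the members are compared, the libraries themselves differed. Depth was 1722359 to 1794175 miRNA reads per library in Cis-sEV but 528952 to 718597 in Ctrl-sEV. The biological coefficient of variation estimated by edgeR was 0.370 within Cis-sEV and 1.58 within Ctrl-sEV. Where no read was found, a level below 3 reads could be missed by counting error alone. This corresponds to 1.67 to 1.74 CPM for Cis-sEV and 4.17 to 5.67 CPM for Ctrl-sEV. Reads in Ctrl-sEV varied by more than that: miR-379-3p had 120, 0 and 0 reads there and miR-496a-3p 203, 102 and 0. A 0 in a Ctrl-sEV library therefore does not bound the level at this floor. Copies made by PCR were not told apart, so all limits and intervals cover counting error only. The hair cell miRNAs miR-183-5p, miR-96-5p and miR-182-5p, which mark the tissue, were read in every library with a summed level of 59073 to 81525 CPM after cisplatin and 54984 to 55757 CPM after PBS. In the edgeR test described below their log2 fold changes went both ways. They were 2.08 for miR-96-5p, which was called higher, 0.18 for miR-182-5p and -0.49 for miR-183-5p. In sEV of a bulk culture, fewer cells of a type and less RNA per cell cannot be told apart.

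As a whole, the cluster held a similar share of the miRNA reads after cisplatin and after PBS. It took 2.70, 2.56 and 2.97% of the reads in the Cis-sEV libraries (mean 2.74 ± 0.208%, SD, n = 3) and 3.25, 2.90 and 2.71% in the Ctrl-sEV libraries (mean 2.95 ± 0.278%, SD, n = 3). The groups overlapped, and the ratio of the means was 0.929. miR-127-3p, the hallmark miRNA of the Rtl1 antisense stretch, made up 65.2 to 68.3% of the cluster's reads after cisplatin and 65.9 to 74.5% after PBS. For the other 63 members together the share was 0.862 to 0.941% after cisplatin and 0.783 to 0.988% after PBS. Against the reads left after removing the 10 most abundant miRNAs of each library, the cluster took 4.70 to 5.37% after cisplatin and 6.70 to 9.08% after PBS. On that base the groups did not overlap and the ratio was 0.650, so the comparison of the summed share depends on what it is divided by.

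Along the locus the shares depended on the same choice. The miR-379/miR-410 group took 0.827, 0.751 and 0.806% of the miRNA reads after cisplatin and 0.619, 0.704 and 0.655% after PBS. Every Cis-sEV library lay above every Ctrl-sEV library there, but against the reads left without the 10 most abundant miRNAs every Cis-sEV library lay below, at 1.38 to 1.47% after cisplatin and 1.62 to 1.73% after PBS. In the edgeR test across miRNAs, the 22 tested members of the group had a median log2 fold change of -0.41, and 15 of them had a negative value. The Rian group took 0.0317, 0.0356 and 0.0277% in Cis-sEV and 0.0585, 0.133 and 0.0501% in Ctrl-sEV, with every Cis-sEV library below on both bases, and in Ctrl-sEV all of these reads were of miR-341-3p. The Meg3 to Rtl1 antisense group overlapped between the treatments as a share of all miRNA reads, with 1.78 to 2.14% after cisplatin and 2.00 to 2.58% after PBS. Against the reads left without the 10 most abundant miRNAs it did not overlap, with 3.26 to 3.86% after cisplatin and 4.96 to 7.19% after PBS. Its 10 tested members had a median log2 fold change of -0.90. These are shares of a total and were not tested.

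**Figure D1:**
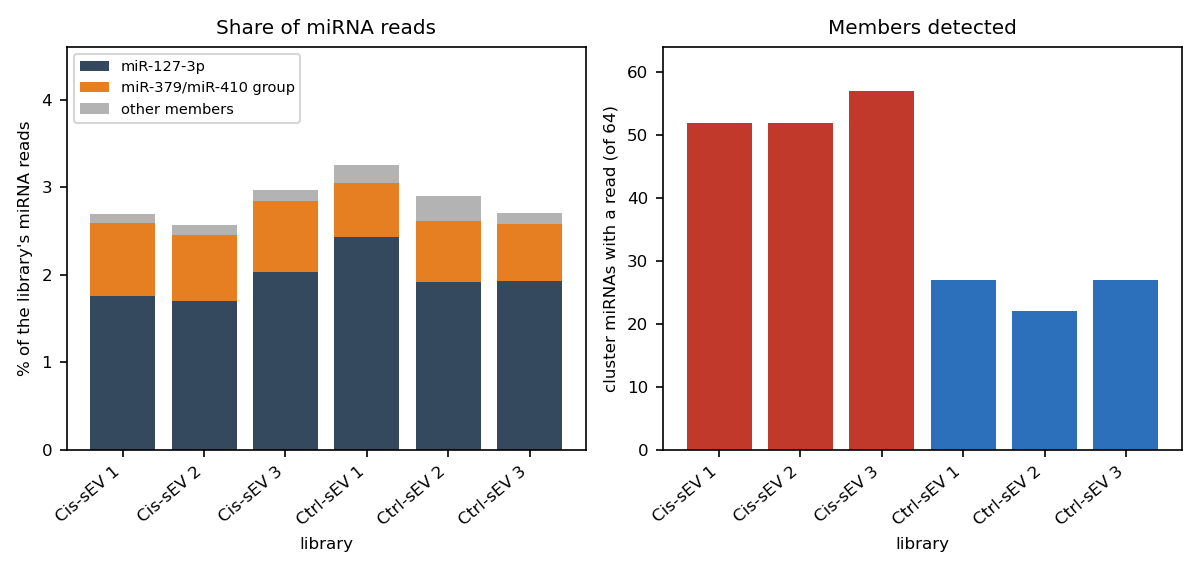
Left, the percentage of each library's miRNA reads on miR-127-3p, on the miR-379/miR-410 group and on the other members, stacked from 0; right, the number of the 64 members with a read in each library. The stacked shares of 2.56 to 3.25% overlap between the groups, while 52 to 57 members were read in a Cis-sEV library and 22 to 27 in a Ctrl-sEV library. Of all 810 miRNAs, 586 to 603 were read in a Cis-sEV library and 258 to 311 in a Ctrl-sEV library.

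The number of members seen differed far more than their summed share. A read was found for 52, 52 and 57 members in the Cis-sEV libraries and for 27, 22 and 27 members in the Ctrl-sEV libraries. The whole table of 810 miRNAs differed in the same direction, with 586, 603 and 601 read in Cis-sEV and 258, 266 and 311 in Ctrl-sEV. In all, 63 members were read in Cis-sEV and 36 in Ctrl-sEV, of which 35 were read in both. Only in Cis-sEV were 28 members (43.75% of the 64) read, beside 51.2% of the 746 other miRNAs. miR-494-5p, with 1 read in Ctrl-sEV 3, was the member seen in Ctrl-sEV alone. At equal depth the difference was nearly as large: with every library thinned at random to 528952 miRNA reads, 61.8 members were read in Cis-sEV and 36.0 in Ctrl-sEV (means of 100 draws). Thinning evens out the number of reads only, and other differences between the libraries, such as copies made by PCR, were not tested. The 28 members read only in Cis-sEV had a median of 24.5 reads over the 3 Cis-sEV libraries and 0.869% of the cluster's reads there. All 3 Cis-sEV libraries held a read of 44 members, and all 3 Ctrl-sEV libraries held a read of 15.

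The counts themselves were spread differently. In Ctrl-sEV, 116 of the 192 counts of members in single libraries were 0, 5 lay at 1 to 8 reads, 3 at 9 to 31 and 68 at 32 or more. In Cis-sEV, 31 counts were 0, 20 lay at 1 to 8 reads, 57 at 9 to 31 and 84 at 32 or more. A member in a Ctrl-sEV library was thus mostly either unread or read more than 31 times, with few counts between. The other miRNAs of the table shared this spread, with 66.1% of their Ctrl-sEV counts at 0, 7.51% at 1 to 8 reads, 1.83% at 9 to 31 and 24.6% at 32 or more, beside 60.4, 2.60, 1.56 and 35.4% for the members. miR-376a-3p, for example, had 57, 97 and 98 reads in Cis-sEV and 67, 0 and 0 in Ctrl-sEV. miR-154-5p had 366, 217 and 321 reads in Cis-sEV and 0, 92 and 100 in Ctrl-sEV. miR-496a-3p had 120, 71 and 54 reads in Cis-sEV and 203, 102 and 0 in Ctrl-sEV. In CPM all 3 overlapped between the groups, with 1 or 2 Ctrl-sEV libraries at 0 and the rest at 32 or more reads.

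**Figure D2:**
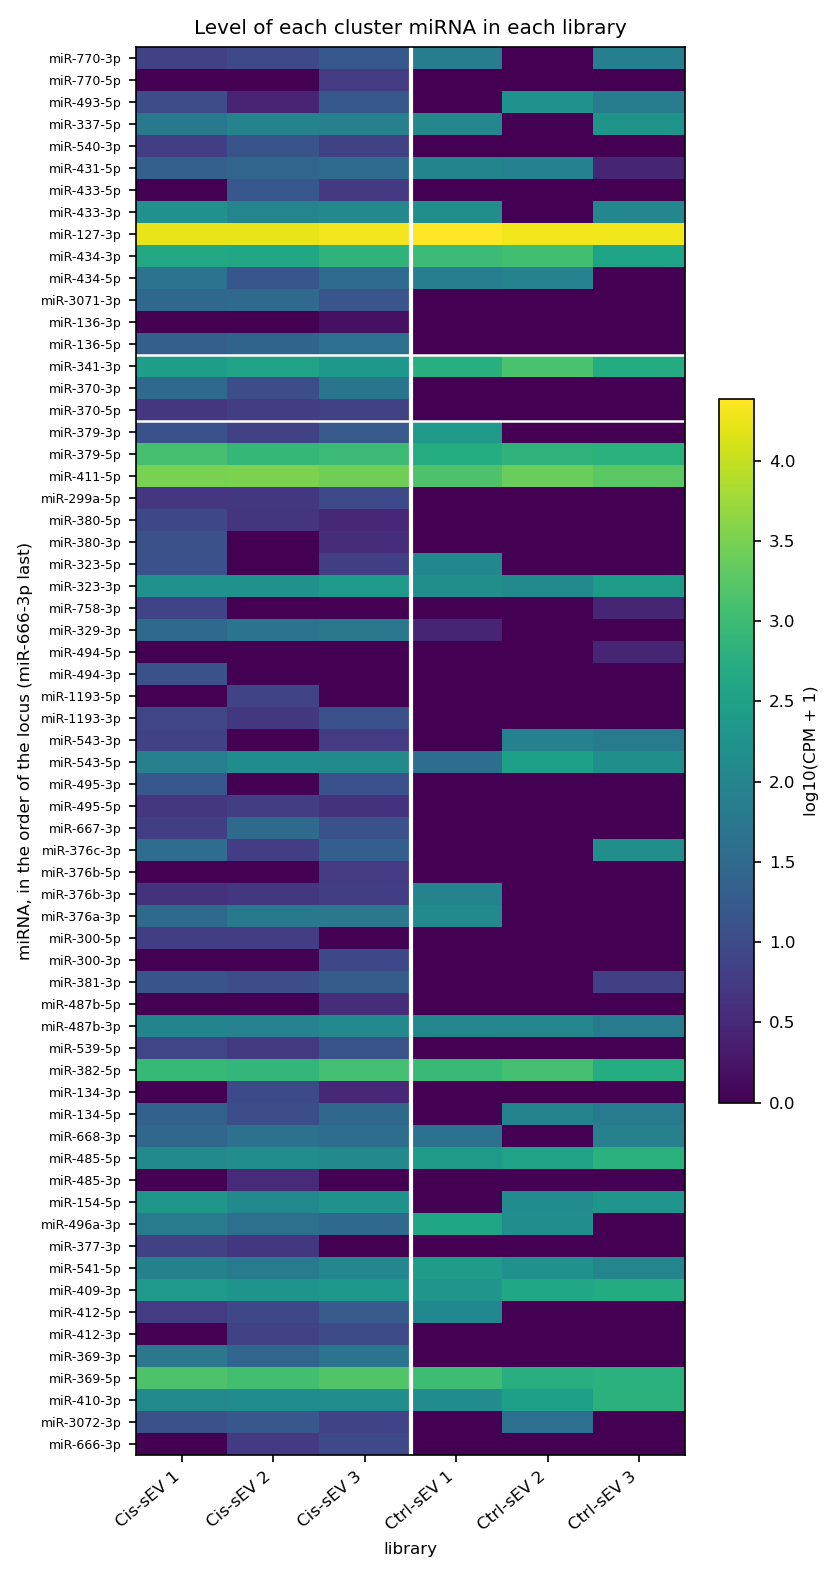
Level of the 64 members in the 6 libraries as log10(CPM + 1), with rows in the order of the locus, white lines between its 3 groups and between the treatments, and miR-666-3p last. The Cis-sEV columns show low values for most members, and the Ctrl-sEV columns are at 0 for 37, 42 and 37 members and high for miR-127-3p, miR-411-5p and a few others.

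To ask which members differed between Cis-sEV and Ctrl-sEV, edgeR's quasi-likelihood test with TMM scaling was fitted to all 353 miRNAs with enough reads in at least 3 libraries. Of these, 34 were members, and the other 30 members were left untested. The untested members had 1 to 115 reads over the 6 libraries, with at most 60 in any of them, and 24 had no read in Ctrl-sEV. A member was called when the log2 fold change was 1 or more in size and the Benjamini-Hochberg adjusted p did not exceed 0.05. Of the 34 members, 5 (14.7%) were called higher in Cis-sEV, beside 23.5% of all miRNAs tested, and 2 (5.88%) were called lower, beside 6.52%. Every Cis-sEV library lay above every Ctrl-sEV library in TMM-scaled CPM for 7 members, beside 37.7% of all tested, and below for 6, beside 12.5%. These were 20.6 and 17.6% of the 34. All 5 members called higher had 0 or 1 read in the whole of Ctrl-sEV, and both members called lower had reads in all 6 libraries. With limma-voom, 1 member, miR-369-3p, was called higher and 0 lower, although 4 lay on each side at an unadjusted p under 0.05. Of all miRNAs tested, limma-voom called 8.50% higher and 3.68% lower. The counts leaned on single libraries, and the shares over all miRNAs tested moved too. Without Cis-sEV 1, 2 of 33 members were called higher, beside 11.7% of all tested. Without Cis-sEV 2 these were 3 of 33 beside 12.9%, and without Cis-sEV 3 they were 3 of 32 beside 17.2%. Without Ctrl-sEV 3, 10 of 43 were called higher, beside 32.7%. Called lower were 0 without any 1 of the Cis-sEV libraries, beside 3.20 to 3.81% of all tested. They were 5 of 42 without Ctrl-sEV 1, beside 6.83%, and 4 of 43 without Ctrl-sEV 3, beside 5.67%. At an unadjusted p under 0.05 the full edgeR fit held 5 higher and 4 lower members, and the fits without a Cis-sEV library held 2 or 3 lower members.

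The median log2 fold change of the 34 members was -0.58, beside 0.44 over all miRNAs tested, and 23 of the 34 had a negative value. Over 6 ways of scaling the libraries the median of all tested moved between 0.22 and 0.79 and that of the members between -0.79 and -0.24. Scaling shifts all values nearly alike, so the gap between both could hardly move there (-1.033 to -0.998). The gap was -1.31 with limma-voom, -1.58 with the replicate number as a block and -2.31 without the filter on low counts. Since 24 of the untested members had no read in Ctrl-sEV, the median of the tested members does not describe the 64 members. Among the 15 members read in every Ctrl-sEV library the median was -0.83 with 0 called higher and 2 lower, and among all 170 tested miRNAs of that kind it was 0.13 with 18 higher and 23 lower.

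**Figure D3:**
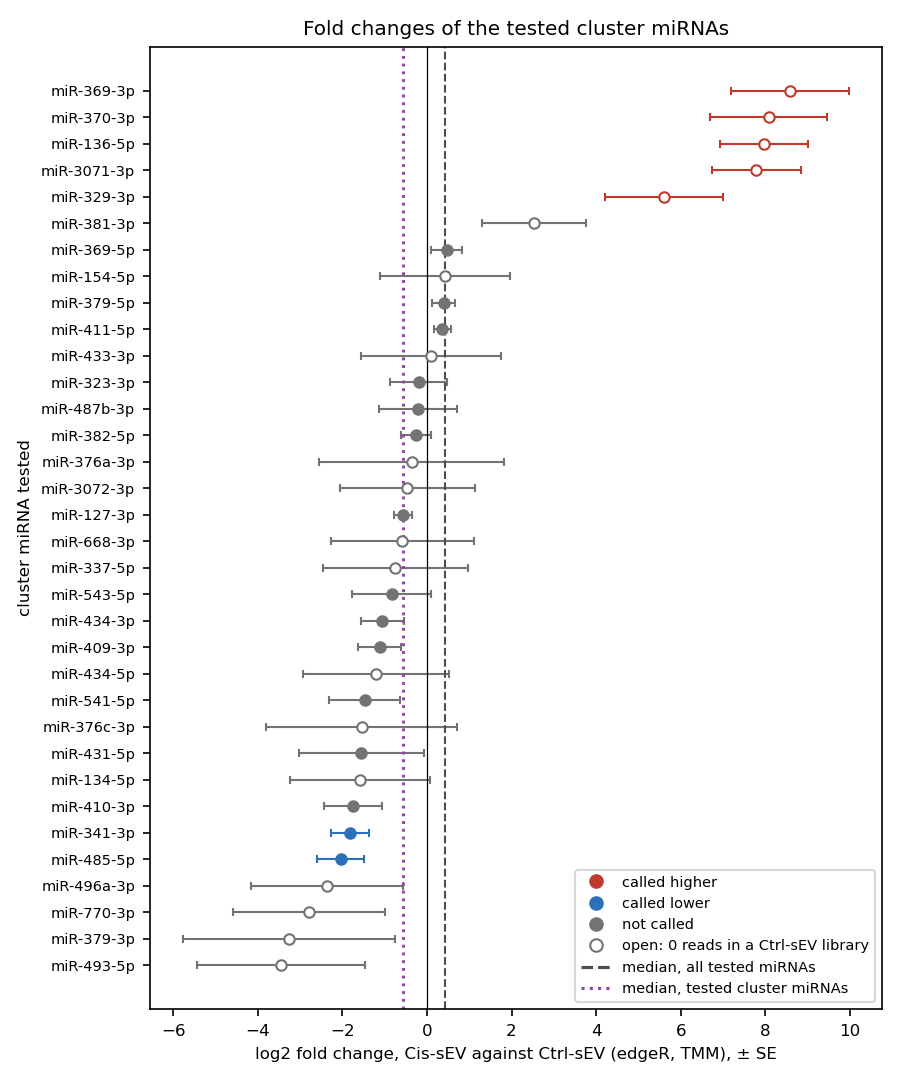
The log2 fold change with its standard error for the 34 tested members, ordered by value; open points had 0 reads in at least 1 Ctrl-sEV library. All 5 members called higher are open points and lie above 5, both members called lower are filled, and the median of the members (-0.58, dotted) lies below that of all tested miRNAs (0.44, dashed).

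In the stretch that overlaps Rtl1, miR-136-5p and miR-3071-3p were called higher, and the abundant members were not called. miR-127-3p was the most abundant member and ranked 20 among all miRNAs of Cis-sEV by mean CPM and 13 among those of Ctrl-sEV. It had 31497, 29285 and 36430 reads in Cis-sEV and 13086, 13751 and 10174 in Ctrl-sEV. That is 18297 ± 1763 CPM against 20871 ± 2921 CPM (SD, n = 3), with overlapping groups. TMM-scaled, every Cis-sEV library, at 15522 to 17233 CPM, lay below every Ctrl-sEV library, at 19235 to 31904 CPM. Its log2 fold change was -0.57 (SE 0.21), under the limit for a call, and edgeR's adjusted p of 0.0778 was the lowest among the tested members that were not called. miR-434-3p had 797, 735 and 1274 reads in Cis-sEV and 557, 834 and 182 in Ctrl-sEV. The groups overlapped, and its log2 fold change of -1.06 (SE 0.51, edgeR adjusted p = 0.177) was not called, though it was without Ctrl-sEV 3 (log2 fold change -1.33, adjusted p = 0.0246). Its partner arm miR-434-5p had 82, 24 and 60 reads against 42, 62 and 0. miR-431-5p had 38, 45 and 60 reads in Cis-sEV and 51, 60 and 1 in Ctrl-sEV (log2 fold change -1.55, SE 1.48, edgeR adjusted p = 0.545), with Ctrl-sEV 3 far from the other two.

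miR-136-5p had 36, 43 and 70 reads after cisplatin and 0 in each Ctrl-sEV library. With 3 reads over the whole of Ctrl-sEV in place of 0, it was at least 13.3-fold higher in Cis-sEV on TMM-scaled depths (edgeR adjusted p = 0.00561), and at least 7.41-fold without Ctrl-sEV 2. This and the other lower bounds on a fold cover counting error only, not the swings between Ctrl-sEV libraries. The partner arm miR-136-3p had 1 read in all, in Cis-sEV 3. miR-3071-3p, from a hairpin on the opposite strand over Mir136, had 52, 52 and 24 reads against 0, 0 and 0, at least 11.5-fold higher on the same scale (edgeR adjusted p = 0.00569) and at least 6.37-fold without Ctrl-sEV 2. The groups did not overlap for either. The 2 miRNAs are complementary over 20 bases, which can be seen from their hairpins, printed with the mature arms in capitals.
Mir136: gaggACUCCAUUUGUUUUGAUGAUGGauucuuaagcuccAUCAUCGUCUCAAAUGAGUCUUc
Mir3071: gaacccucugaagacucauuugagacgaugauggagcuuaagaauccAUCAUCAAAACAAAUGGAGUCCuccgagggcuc
Mir136 lies at chr12:109595327-109595388 on the plus strand and Mir3071 at chr12:109595318-109595397 on the minus strand. Rtl1 lies on the minus strand too, so Mir3071 is not antisense to it. How strand was used in the counting is not given in the sources used here. The counts of miR-136-5p and miR-3071-3p differed from each other in every Cis-sEV library.

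Pairing with Rtl1 was read from the sequences. 8 members from 5 hairpins had a perfect complement in the 6358-base Rtl1 transcript of GENCODE: miR-127-3p, both arms of miR-136, miR-431-5p, and both arms of miR-433 and miR-434. The site of the most abundant member and that of the member called higher are printed 5′ to 3′ as they stand in the transcript.
Rtl1 site of miR-127-3p: agccaagcucagacggauccga
Rtl1 site of miR-136-5p: ccaucaucaaaacaaauggagu
The match covers 22 bases at each of these sites. Of these 8 members, miR-136-5p was called, and Rtl1 mRNA was not measured in these libraries.

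In the Rian group 1 member was called in each direction. miR-370-3p had 56, 17 and 90 reads in Cis-sEV and 0 in each Ctrl-sEV library, at least 14.6-fold higher on TMM-scaled depths (edgeR adjusted p = 0.0115) and at least 8.11-fold without Ctrl-sEV 2. The study's RT-qPCR included this miRNA but did not list it among those stably higher in Cis-sEV. Its partner arm miR-370-5p showed the same pattern at lower counts, with 7, 9 and 11 reads against 0, 0 and 0, too few for the test. miR-341-3p, a miRNA rich in repeated CGGU units, had 505, 588 and 396 reads in Cis-sEV and 316, 954 and 265 in Ctrl-sEV. In CPM these were 281.9, 341.4 and 220.7 against 585.4, 1327.6 and 501.0, so that the groups overlapped in reads but not in CPM. Relative to the other miRNAs it fell by 1.82 on the log2 scale (SE 0.45, edgeR adjusted p = 0.0194). Scaled by total miRNA reads alone, the log2 fold change was -1.52 and the adjusted p 0.0554. Without Cis-sEV 1, 2 or 3 or Ctrl-sEV 2 the call was also lost, with adjusted p of 0.0761, 0.0570, 0.128 and 0.0648.

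In the miR-379/miR-410 group, 2 members were called higher and 1 lower, and the abundant members did not pass the test. miR-411-5p, second to miR-127-3p, had 5732, 5747 and 4789 reads in Cis-sEV and 792, 1712 and 983 in Ctrl-sEV, or 3069 ± 353 against 1903 ± 459 CPM (SD, n = 3). Its groups did not overlap in CPM but did once TMM-scaled, and its log2 fold change was 0.37 (SE 0.19, edgeR adjusted p = 0.211). miR-379-5p had 2200, 1456 and 1810 reads against 282, 506 and 333. Every Cis-sEV library lay above every Ctrl-sEV library on both scales, at 1027 ± 192 against 619 ± 91.3 CPM (SD, n = 3), but the log2 fold change of 0.39 (SE 0.27, edgeR adjusted p = 0.356) was not called. miR-382-5p was close between the groups in CPM, with 948 ± 193 in Cis-sEV and 883 ± 326 in Ctrl-sEV (SD, n = 3). miR-487b-3p and miR-323-3p were close as well, with 97.1 ± 14.4 against 87.2 ± 19.9 CPM and 192 ± 37.8 against 171 ± 67.5 CPM (SD, n = 3).

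miR-485-5p had 213, 240 and 205 reads in Cis-sEV and 130, 245 and 340 in Ctrl-sEV. In CPM these were 118.9, 139.3 and 114.3 against 240.8, 340.9 and 642.8, so that the groups overlapped in reads but not in CPM. It fell by 2.04 on the log2 scale (SE 0.56, edgeR adjusted p = 0.0284), the call nearest to the limit. Scaled by total miRNA reads alone its log2 fold change was -1.72 with an adjusted p of 0.0660, and without Cis-sEV 1, 2 or 3 the adjusted p was 0.119, 0.0939 and 0.134. Other members from Mirg that were not called lay on both sides, with a positive log2 fold change for miR-369-5p (0.46) and negative ones for the next 3. miR-410-3p had 122.8, 134.1 and 139.3 CPM against 127.8, 296.4 and 650.3 CPM (log2 fold change -1.74, SE 0.69, edgeR adjusted p = 0.0963). miR-409-3p had 398, 322 and 396 reads against 108, 290 and 263 (log2 fold change -1.12, SE 0.50, adjusted p = 0.145), and miR-541-5p had 148, 111 and 191 against 144, 116 and 52 (log2 fold change -1.47, SE 0.84, adjusted p = 0.261). Without Ctrl-sEV 1, miR-410-3p and miR-409-3p passed the limits, with log2 fold changes of -2.20 and -1.43 (adjusted p = 0.0330 and 0.0449). miR-543-5p, of the proximal part, had 141, 228 and 213 reads against 20, 218 and 81 and was not called.

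miR-369-3p had 98, 44 and 86 reads in Cis-sEV and 0 in each Ctrl-sEV library, at least 20.4-fold higher on TMM-scaled depths (edgeR adjusted p = 0.0102) and at least 11.3-fold without Ctrl-sEV 2. miR-329-3p had 56, 79 and 97 reads in Cis-sEV and 1, 0 and 0 in Ctrl-sEV. Its ratio on TMM-scaled depths was 62.3 with a 95% Clopper-Pearson interval of 11.1 to 2473 (edgeR adjusted p = 0.0194), and without Ctrl-sEV 1, which held the 1 read, it was at least 15.5-fold higher. Its call was lost without Cis-sEV 1, 2 or 3, with adjusted p of 0.0678, 0.0563 and 0.0559. miR-136-5p and miR-369-3p passed the test whichever library was left out. miR-3071-3p was untested, and so not called, without Cis-sEV 1 or 2, and miR-370-3p without Cis-sEV 1 or 3. Both passed in the other fits with a library left out. All 4 tested members without a read in Ctrl-sEV were called. They met the filter on reads through Cis-sEV alone, so passing in these refits is no separate support for their calls.

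**Figure D4:**
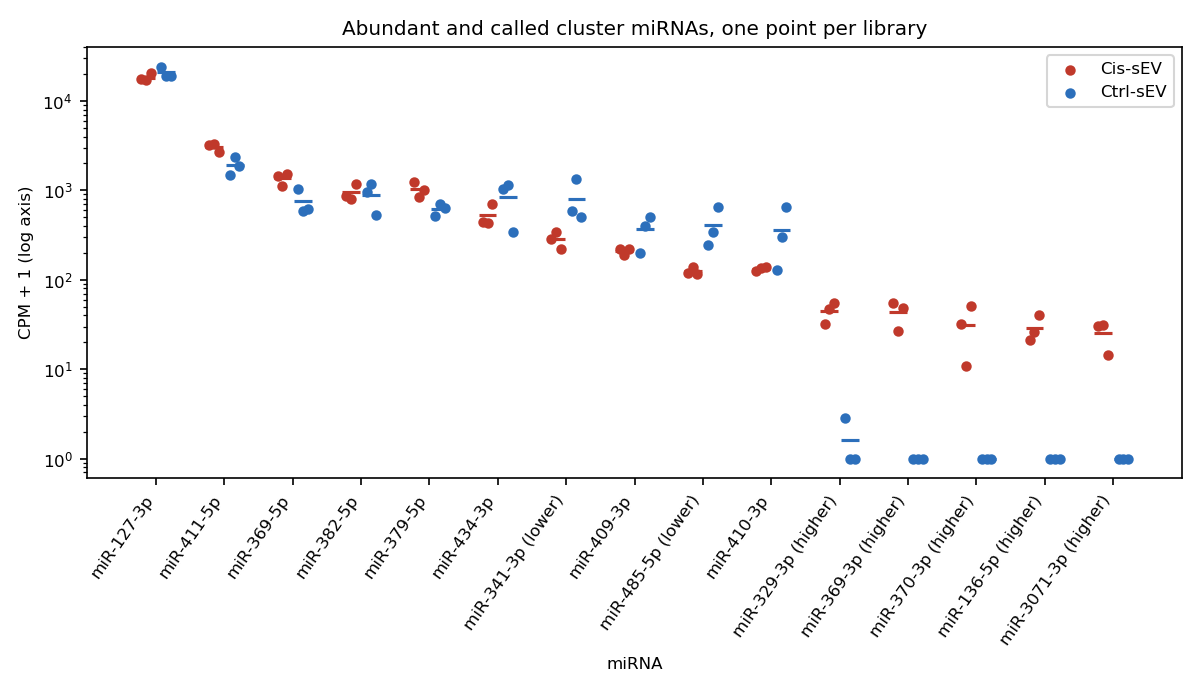
CPM + 1 on a log axis of the 10 most abundant members and the members called, 1 point per library and a line at the mean of each group (n = 3). Of the 10 abundant members, miR-341-3p and miR-485-5p lie lower in every Cis-sEV library than in any Ctrl-sEV library, and the 5 called higher lie at 9.87 to 54.7 CPM in Cis-sEV and at 0 in Ctrl-sEV but for 1 read of miR-329-3p.

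The arms of 1 hairpin come from the same precursor, so their ratio does not depend on the scaling between libraries. The 5p arm of Mir369, with 1458, 1119 and 1541 CPM in Cis-sEV and 1049, 582 and 622 CPM in Ctrl-sEV, did not pass the test (log2 fold change 0.46, SE 0.37, edgeR adjusted p = 0.453). The 3p arm took 3.62, 2.23 and 3.02% of the hairpin's reads in Cis-sEV and 0% in each Ctrl-sEV library. Over the groups these were 3.03% of 7532 reads (95% Clopper-Pearson interval 2.65 to 3.44%) and 0 of 1313 reads (interval 0 to 0.281%). The groups did not overlap, and a two-sided exact permutation test over the libraries gave p = 0.1, the smallest that 3 against 3 allows (0.7 when adjusted over 7 hairpins).

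For the other hairpins with reads in every library the minor arm was erratic in Ctrl-sEV. miR-379-3p had 21, 11 and 29 reads in Cis-sEV, 0.945, 0.750 and 1.58% of its hairpin, and 120, 0 and 0 in Ctrl-sEV, where the 120 reads were 29.9% of the hairpin in Ctrl-sEV 1. miR-323-5p had 21, 0 and 10 reads in Cis-sEV and 59, 0 and 0 in Ctrl-sEV, with 42.8% of the hairpin in Ctrl-sEV 1. miR-543-3p had 11, 0 and 9 reads in Cis-sEV and 0, 60 and 35 in Ctrl-sEV, with 21.6 and 30.2% of the hairpin in Ctrl-sEV 2 and 3. These shares overlapped between the groups. miR-487b-5p and miR-485-3p, with 5 and 4 reads in all, were like miR-369-3p read in Cis-sEV only. Of 21 minor-arm counts in Ctrl-sEV over these 7 hairpins, 15 were 0, and of 21 in Cis-sEV 6 were 0. The arm with more reads was 5p for 8 and 3p for 11 of the 19 hairpins with both arms. For 6 of the 19 no read of either arm was found in Ctrl-sEV.

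**Figure D5:**
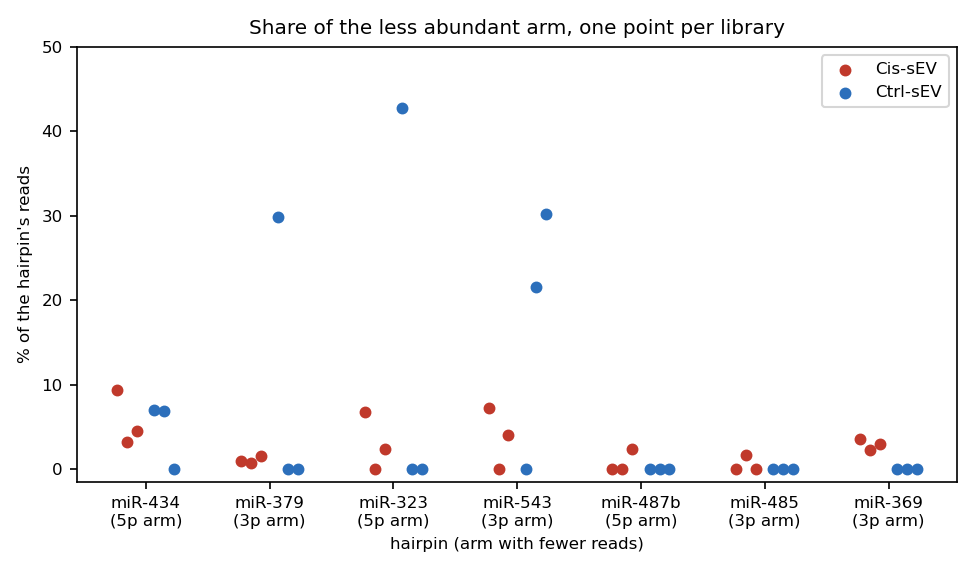
Percentage of each hairpin's reads on its less abundant arm, 1 point per library, for the 7 hairpins with reads in all 6 libraries. For miR-369 the 3p arm lies at 2.23 to 3.62% in Cis-sEV and at 0 in Ctrl-sEV, while for miR-379, miR-323 and miR-543 single Ctrl-sEV libraries reach 21.6 to 42.8%.

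In all, 12 members were read in every Cis-sEV library and in no Ctrl-sEV library, 18.75% of the 64, beside 12.3% of all 810 miRNAs. They were the 4 called members without a read in Ctrl-sEV, miR-370-5p, and 7 others that did not meet the filter of the test: miR-540-3p, miR-299a-5p, miR-380-5p, miR-1193-3p, miR-495-5p, miR-667-3p and miR-539-5p. Among these 7, miR-667-3p had most reads, 10, 54 and 21, and miR-495-5p fewest, 7, 9 and 6. The related miR-376a-3p, miR-376b-3p and miR-376c-3p differ by few bases, and reads could have been split among them. miR-376b-3p had 6, 7 and 10 reads against 50, 0 and 0, and miR-376c-3p 64, 9 and 35 against 0, 0 and 76. Both overlapped between the groups.

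Other sets of miRNAs were read beside the cluster by the same counts. The imprinted Sfmbt2 repeat cluster, a rodent cluster expressed from the paternal allele, had 32 members in the table, of which 22 were read only in Cis-sEV. Of its 13 tested members 5 were called higher and 1 lower, with a median log2 fold change of 0.60. The 2 other miRNAs of the Dlk1-Dio3 domain in the table were nearly unread, with 7, 0 and 1 reads against 0, 0 and 1 for miR-1247-5p and 0, 5 and 0 against 0 for miR-3544-5p. All 9 neuronal miRNAs listed were in the table, and their summed share of the miRNA reads was 1.56 to 1.61% after cisplatin and 0.444 to 0.641% after PBS. Of the 8 tested, 3 were called higher and 0 lower (median log2 fold change 1.54), and the defining miR-124-3p had 109, 25 and 88 reads against 0, 0 and 0. The study's RT-qPCR did not list miR-124-3p among the miRNAs stably higher in Cis-sEV. Most of the neuronal reads were of miR-218-5p, also called higher (1.45). A positive log2 fold change was found for 7 of the 8, with 0.15 for miR-9-5p, and a negative one for miR-129-5p (-0.53). Of 3 muscle miRNAs listed, the 2 in the table, miR-1a-3p and miR-206-3p, were both called higher and summed to 47.4 to 62.4 CPM in Cis-sEV and 0 to 2.78 CPM in Ctrl-sEV. The 3 erythrocyte miRNAs summed to 1153 to 1306 CPM against 1509 to 3330 CPM, and 2 of them were called lower. The 2 endothelial miRNAs summed to 6915 to 9947 CPM against 14595 to 18602 CPM. Nearly all of these reads were of miR-126a-3p, which was called lower (log2 fold change -1.28). The other, miR-126a-5p, had 94, 51 and 84 reads against 0, 0 and 3 and a log2 fold change of 4.17 without a call. The 5 mesenchymal miRNAs summed to 6062 to 9821 CPM against 3018 to 5307 CPM with none called, and 3 of the 4 leukocyte miRNAs listed to 430 to 674 CPM against 399 to 561 CPM with none called. The part of these cell types in the values of the cluster was not tested.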

How the data were processed

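Small RNA of 18 to 30 nt from 3 Cis-sEV and 3 Ctrl-sEV samples was sequenced on the DNBSEQ platform. The authors aligned the reads with Bowtie2 to GRCm38.p6 (versions of the tools are not given in the sources used here), annotated them with AASRA and cmsearch, and deposited raw counts of reads per mature miRNA, without normalization. The deposited table also holds a signal column of the mean count for each group and the length of each miRNA. The group means were not used.

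The members, the lists and the tests were chosen with earlier results of these data known. Counts of all 810 miRNAs were filtered with filterByExpr. It asked for 15 reads in all and for 10 reads, scaled by library size, in as many libraries as the smaller group holds (3 in the full fit). The miRNAs kept were tested in edgeR 4.0.16 (R 4.3.3) with TMM factors (0.762 to 0.997 for Ctrl-sEV and 1.10 to 1.18 for Cis-sEV), the quasi-likelihood test, and Benjamini-Hochberg adjustment over the 353 tested. The standard error printed is the size of the log2 fold change over the square root of edgeR's F statistic. For members without a read in Ctrl-sEV both values depend on the small count that edgeR adds. Depth was 528952 to 1794175 miRNA reads. An edgeR p-value weighs a difference against the spread between these samples, which is taken as shared by both groups. The coefficient of variation was 0.370 within Cis-sEV and 1.58 within Ctrl-sEV. Called members without a read in Ctrl-sEV showed no spread there, so their p-values do not cover the swings between Ctrl-sEV libraries. Members treated singly were those called, the 10 with the highest mean CPM, those with a read in every Ctrl-sEV library, the partner arms of these, miR-370-3p, and those next to the limits of the call. Other members given as examples were chosen after their values were seen, as was the exact permutation test of the arm shares. Where Ctrl-sEV had 0 reads, 3 reads over the group gave a lower bound on the fold, from reads summed over each group and divided by TMM-scaled depths, and with 1 to 3 reads a 95% Clopper-Pearson interval was computed. Both cover counting error only. Alternatives were 5 other scalings, 2 other filters, DESeq2 1.42.0, limma-voom (limma 3.58.1) without and with weights by group, the replicate number as a block, miRBase names only, no limit on the fold change, and each library left out. The fits were tested on simulated counts. Sequences were taken from RefSeq and the table, transcripts from GENCODE release M21, and other steps used Python 3.11.15, scipy 1.17.1 and matplotlib 3.10.9.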

Additional observations from a re-analysis of the deposited data

How the results depend on the processing

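All 121 refits of the 7 called members kept the direction of the log2 fold change, but many lost the call. The number of members called higher, 5, was 1 with limma-voom and ranged from 2 to 10 when a library was left out. Of all miRNAs tested, 8.50% were called higher with limma-voom and 11.7 to 32.7% with a library left out. The number called lower, 2, was 0 with total miRNA reads, with no filter on low counts and with limma-voom, and ranged from 0 to 5 when a library was left out. Of all miRNAs tested, these 3 fits called 3.12, 1.73 and 3.68% lower, and the fits with a library left out 3.20 to 6.83%. At an unadjusted p under 0.05 these 3 fits held 2, 3 and 4 lower members. DESeq2 called 6 members higher and 2 lower, beside 18.9 and 5.07% of all tested. With the replicate block in edgeR, 0 members were called higher and 0 lower (1 and 2 at an unadjusted p under 0.05). Whether same-numbered libraries were prepared together is not given in the sources used here. The deviations of same-numbered Cis-sEV and Ctrl-sEV libraries correlated at -0.0438, -0.1701 and -0.0142 across miRNAs. Those of differently numbered ones correlated at -0.1212 to 0.1612. With correlations this small on both sides and the wide spread within Ctrl-sEV, these values cannot decide whether the libraries were paired. Over all miRNAs the block left 13 called higher and 11 lower, and limma-voom 30 and 13, beside 83 and 23. Without the filter all 810 miRNAs were tested, 62 and 14 were called, and the median log2 fold change of the members was 0.38 beside 2.68 for all. miR-379-3p, at -3.26 without a call, ranged from -3.61 to 6.85 with a library left out, and was called at 6.85 without Ctrl-sEV 1, the library that held its 120 Ctrl-sEV reads.

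The members detected in Ctrl-sEV, 36, were 15 when a read in every library was asked for. The ratio of the summed shares, 0.929, was 0.650 on the reads without the 10 most abundant miRNAs and 1.05 without miR-127-3p, and lay between 0.890 and 0.978 with any library left out. At 528952 to 718597 reads, a member under 4.17 to 5.67 CPM can go unread in a Ctrl-sEV library by counting error alone. Members well above that in some Ctrl-sEV libraries were unread in others. The causes of the lost calls were not tested.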
